A study of Rattus norvegicus with 94 samples.

Results

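The response of rat liver to valproate was set against its response to di(2-ethylhexyl) phthalate (DEHP) 48 h after a single dose, and the question was which transcripts the compounds changed to a different extent or in opposite directions. The comparison used 19 of the 94 arrays of the series, chosen by their labels alone: 4 livers after sodium valproate (VPA) at 2000 mg/kg, 5 vehicle livers of the VPA set, 5 livers after DEHP at 20 g/kg and 5 vehicle livers of the DEHP set. All animals were male SD (Sprague-Dawley) rats whose age the labels do not give, all vehicles were distilled water, and each array held the RNA of 1 animal. The doses differ, so a difference between the responses is one between these treatments as given and not between equal amounts of compound. A response is the mean log2 signal of the treated group minus that of its own vehicle group, and the response difference is the VPA response minus the DEHP response, so that a positive value means that the VPA response was higher.

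VPA is an anticonvulsant drug and a short branched-chain fatty acid that is activated to its coenzyme A ester in liver and inhibits histone deacetylases. DEHP is a plasticizer that is cleaved to a monoester, and this monoester activates the nuclear receptor PPARα, which in rodent liver raises genes of peroxisomal and mitochondrial fatty acid oxidation and makes peroxisomes multiply. The transcription factors of the SREBP family drive a separate set of lipid genes, SREBP-2 mostly those of cholesterol synthesis and SREBP-1c those of fatty acid synthesis.

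The arrays were alike in general quality: the median signal lay between 283 and 361, 37.6 to 42.5% of probe sets reached a signal of 500, and arrays of 1 group correlated at 0.949 to 0.977. All DEHP arrays were scanned on 4 days and all VPA arrays on 3 later days, with no day in common. Compound and scan period therefore cannot be told apart in the comparison, whereas each response was measured within its own period. Treatment and scan day were not balanced within a period. With the days numbered in order, days 3 and 4 held 1 DEHP-treated array each and no vehicle. Day 2 held 1 DEHP-treated array and 3 vehicles, and day 6 held 1 VPA vehicle alone. With scan day as a fixed block 323 differences were called in place of 608. The scanner files of all 19 arrays carry a project text that names VPA, and the groups used here are those of the labels. For 1 array, VPA-treated replicate 1, a fluidics time-out was recorded. DEHP vehicle replicate 1 stood apart from the other 4 DEHP vehicles in lipid genes: Ech1 read 11706 there against 2090 to 3229, Cpt1a 10359 against 2056 to 3408, Pex11a 2359 against 389 to 793 and Acly 4427 against 13371 to 15724. It therefore lay toward the treated arrays for genes of fatty acid oxidation. Values without it are given beside many of the results that rest on it, but not beside all.

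The vehicle groups themselves differed at 249 of the 4072 probe sets tested (6.11%), with 3.51% higher and 2.6% lower in VPA vehicle, or at 5.51% of genes counted by 1 probe set each, with 3.24% higher and 2.27% lower. Hepatocyte markers were among them. Of 9 tested hepatocyte markers, 6 were lower in VPA vehicle than in DEHP vehicle, and their summed signal was 429923 to 524560 in VPA vehicle and 545051 to 680996 in DEHP vehicle. It was 274216 to 349954 after VPA and 412136 to 519397 after DEHP, and 8 of the 9 markers fell in each response. Albumin (Alb) was abundant on all 19 arrays, at 40416 to 122547, as the liver label calls for. In whole tissue, fewer cells of a type and less RNA per cell cannot be told apart.

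By limma with Benjamini-Hochberg adjustment over all 4072 probe sets (2470 genes), the VPA response was called at 1672 probe sets (41.1%), 886 up (21.8%) and 786 down (19.3%), and the DEHP response at 1321 (32.4%), 510 up (12.5%) and 811 down (19.9%). Counted by genes these shares were 39.5% and 31.3%. The response difference was called at 608 probe sets (14.9%), with the VPA response higher at 412 (10.1%) and lower at 196 (4.81%), and at 14.1% of genes. The treated arrays of the compounds did not overlap, after subtraction of the vehicle means, at 25.3% of probe sets. The responses were shared in part, and 810 probe sets were called in both. These are 48.4% of the VPA calls and 61.3% of the DEHP calls. Of the 810, 765 moved in the same direction and 45 in opposite directions. Across the 4072 probe sets the responses correlated at r = 0.67 (Spearman 0.57), a description in which probe sets are not independent replicates.

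The called differences were mostly genes that only 1 response called. Among the 412 with a higher VPA response, VPA alone rose at 217, DEHP alone fell at 98, both rose at 40 with the larger rise after VPA, both fell at 15 and the responses were opposite at 32, leaving 10 where neither response was called by itself. Among the 196 with a lower VPA response, VPA alone fell at 113, DEHP alone rose at 21, both fell at 29, both rose at 15 and the responses were opposite at 13, leaving 5. With each array centred on its median signal, which shifts the median difference by -0.15 on the log2 scale, the split turned from 412 higher and 196 lower to 240 and 302, so the sizes of both classes depend on the scaling. With quantile normalization it was 282 and 218.

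**Figure D1:**
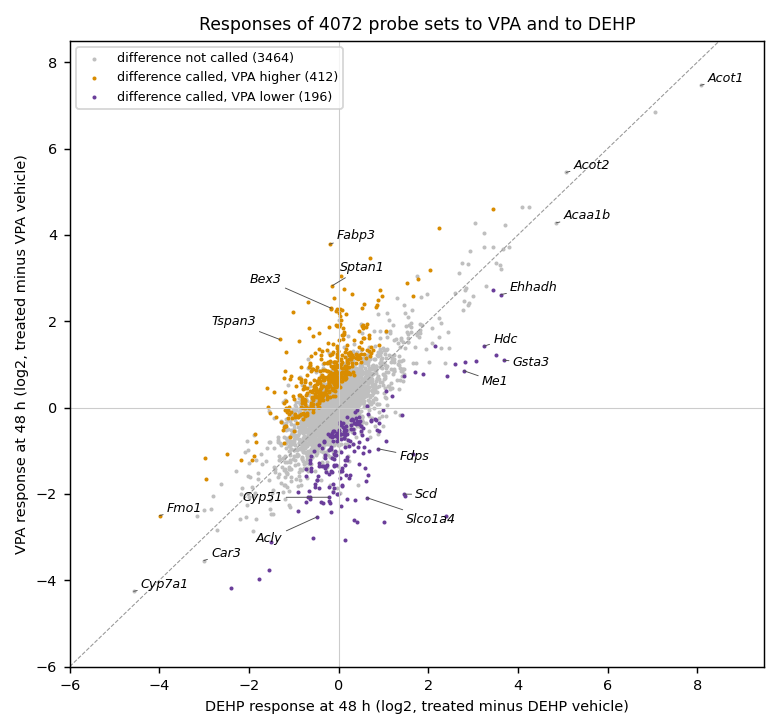
Each point is 1 of the 4072 probe sets, with the DEHP response at 48 h on the horizontal axis and the VPA response on the vertical axis, both as log2 of treated over own vehicle; the dashed line marks equal responses. Acot1, Acot2 and Acaa1b lie far out at the upper right near the line, whereas Fabp3 and Sptan1 lie high on the VPA axis and near zero on the DEHP axis, and Acly and Cyp51 lie further below zero on the VPA axis than on the DEHP axis.

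Genes of cholesterol synthesis fell after VPA and not, as a group, after DEHP. Of 15 genes tested, 10 fell and 0 rose after VPA, against 18.8% and 20.6% of all genes. After DEHP 1 fell and 2 rose, against 21.0% and 10.3%. Without DEHP vehicle replicate 1, 2 fell and 1 rose after DEHP, and the median DEHP response went from 0.19 to 0.04. The response difference was called lower for 9 and higher for 0, against 3.85% and 10.2% of all genes, and its median was -1.33 where the median over all genes was 0.11. Over the alternative settings the number called lower was 7 to 10. Without DEHP vehicle replicate 1 it was 9, and the median difference was -1.16.

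Cyp51, the lanosterol demethylase of the pathway, read 1647, 1411, 1586 and 899 on the VPA-treated arrays against 5866, 10299, 4592, 5987 and 3603 in VPA vehicle. After DEHP it read 5001, 3608, 6011, 4368 and 6255 against 4482, 6275, 7605, 6736 and 4355. The VPA-treated arrays all lay below all other arrays, and the DEHP arms overlapped: the VPA response was -2.08 ± 0.26 (SE; 4.22-fold lower, adjusted p = 3.09e-06), the DEHP response -0.22 ± 0.25 and the difference -1.86 ± 0.36 (adjusted p = 0.00178). The 4 other Cyp51 probe sets were called in the same direction, at -1.08 to -2.25.

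Fdps, which makes farnesyl diphosphate, moved in opposite directions. It read 4327, 5670, 4235 and 3898 after VPA against 9041, 11697, 8038, 8662 and 6728 in VPA vehicle, and 20263, 14016, 18766, 17086 and 15518 after DEHP against 4417, 9463, 14685, 13698 and 8116 in DEHP vehicle. VPA lowered it without overlap and DEHP raised it with a small overlap. The responses were -0.95 ± 0.26 (adjusted p = 0.00526) and 0.87 ± 0.24 (adjusted p = 0.00893). The difference was -1.83 ± 0.35 (adjusted p = 0.00176), or -1.56 without DEHP vehicle replicate 1. That array, at 4417, was the lowest of the DEHP vehicles, and the DEHP response without it is not given here.

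Idi1, the isomerase that supplies dimethylallyl diphosphate, read 559, 572, 479 and 351 after VPA against 1789, 3116, 1717, 1685 and 834. After DEHP it read 1382, 1203, 1785, 1325 and 1890 against 797, 2010, 2340, 1910 and 820. Again the VPA arms were apart and the DEHP arms overlapped, with a difference of -1.87 ± 0.47 (adjusted p = 0.0106). Nsdhl, which acts in the removal of methyl groups from lanosterol, fell after both compounds, by 1.77 ± 0.17 after VPA (1390 to 2113 on the treated arrays against 5277 to 6922) and by 0.53 ± 0.16 after DEHP, with a difference of -1.24 ± 0.23 (adjusted p = 0.00128).

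The other called members fell after VPA with no called DEHP response. They were Msmo1, a sterol methyl oxidase (difference -1.72 ± 0.34), Lss, lanosterol synthase (-1.57 ± 0.34), Insig1, the sterol-regulated retention protein of SREBP in the endoplasmic reticulum (-1.41 ± 0.36), Fdft1, squalene synthase (-1.35 ± 0.30), and Ebp, the sterol isomerase (-1.33 ± 0.27), with adjusted p from 0.00231 to 0.0128. Not every gene of the pathway followed: the differences of Mvk, Mvd, Dhcr7, Sqle, Hsd17b7 and Acat2 were not called.

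**Figure D2:**
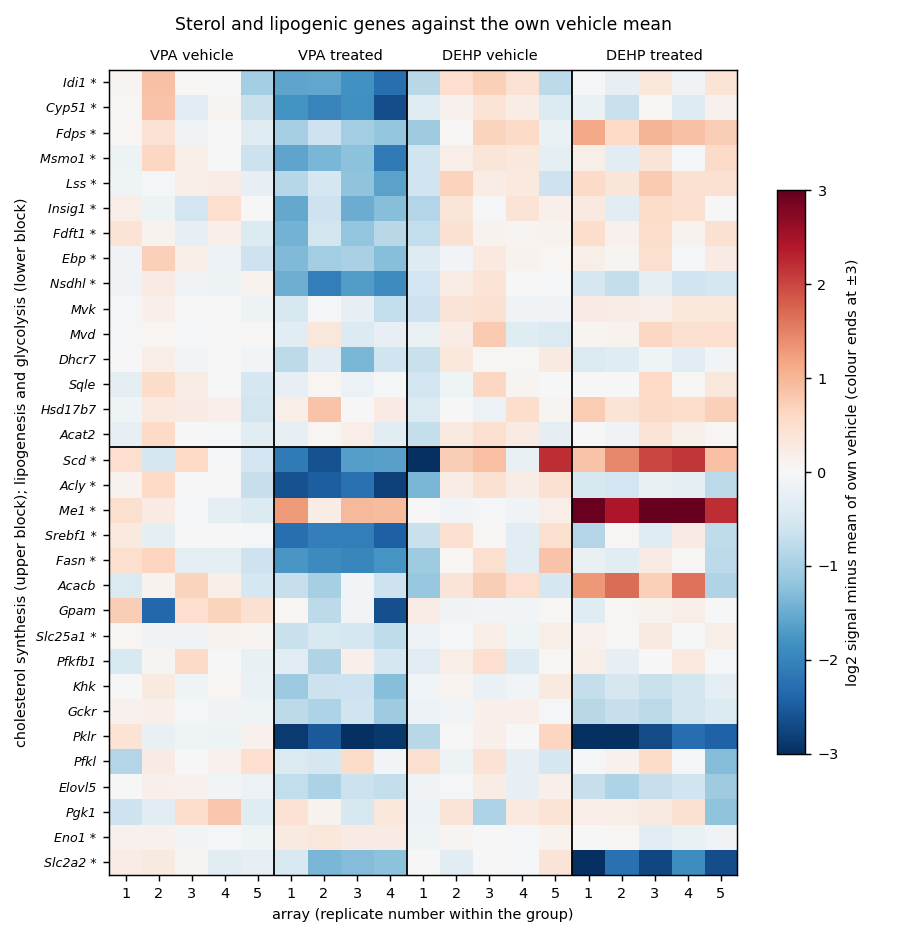
Rows are the tested genes of cholesterol synthesis (upper block) and of lipogenesis and glycolysis (lower block), columns the 19 arrays, and colour is the log2 signal minus the mean of the own vehicle group; an asterisk marks a called response difference. The 4 VPA-treated columns are blue for the 9 marked sterol genes and for Acly, Srebf1 and Fasn, Me1 is red in the DEHP-treated columns, and the first DEHP vehicle column is blue for Scd, Acly and Fasn.

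The promoters of the sterol genes are shown because these genes moved together. Each sequence is the 250 bases before the annotated start, on the strand of the gene, from the RefSeq table of build GRCr8, with CCAAT and its reverse complement ATTGG, the only motif capitalised, in capitals; CCAAT is bound by NF-Y, a general factor that works beside SREBP in known sterol promoters. Fdps is at chr2:176804817-176805066 on the minus strand, Idi1 at chr17:66547525-66547774 on the minus strand, Msmo1 at chr16:29746863-29747112 on the plus strand and Cyp51 at chr4:30991443-30991692 on the plus strand.
Fdps: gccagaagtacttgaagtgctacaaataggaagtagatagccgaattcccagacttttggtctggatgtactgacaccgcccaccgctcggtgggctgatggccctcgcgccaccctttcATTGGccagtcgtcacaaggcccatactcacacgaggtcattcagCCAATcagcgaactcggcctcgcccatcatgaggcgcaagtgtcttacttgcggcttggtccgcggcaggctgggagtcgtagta
Idi1: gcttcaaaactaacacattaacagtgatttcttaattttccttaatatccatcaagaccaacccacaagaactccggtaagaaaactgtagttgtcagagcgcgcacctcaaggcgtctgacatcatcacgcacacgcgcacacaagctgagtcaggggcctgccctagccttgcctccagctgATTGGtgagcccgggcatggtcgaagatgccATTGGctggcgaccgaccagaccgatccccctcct
Msmo1: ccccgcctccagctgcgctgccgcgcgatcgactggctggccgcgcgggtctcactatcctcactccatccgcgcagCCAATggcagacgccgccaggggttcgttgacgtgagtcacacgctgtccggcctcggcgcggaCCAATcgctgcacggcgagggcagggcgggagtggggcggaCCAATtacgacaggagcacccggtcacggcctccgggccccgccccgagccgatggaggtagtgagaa
Cyp51: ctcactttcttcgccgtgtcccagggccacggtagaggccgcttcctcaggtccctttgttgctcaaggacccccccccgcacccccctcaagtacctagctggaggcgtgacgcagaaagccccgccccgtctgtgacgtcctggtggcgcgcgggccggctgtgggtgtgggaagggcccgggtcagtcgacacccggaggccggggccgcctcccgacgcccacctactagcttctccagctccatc
The letters CCAAT, on either strand, occurred in 7 of the 8 called sterol genes that have a window (Nsdhl, Fdps, Msmo1, Ebp, Lss, Idi1 and Insig1, and not Cyp51), against 34.3% of all 27457 windows of this length. Among the genes of largest differences that have a window, whatever their pathway, the letters occurred in 6 of 11 with a higher and in 6 of 10 with a lower VPA response. They also occurred in 5 of 7 windows of the genes of largest shared rise (Acot1, Acot2, Acaa1b, Pdk4 and Aldh1a1). The sterol element TCACNCCAC, read on both strands, matched 0 of the 8 sterol gene windows and 0.976% of all windows. A match of letters is a description of the sequence and not a bound site.

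Several genes of fatty acid synthesis had lower VPA responses too. In the list of lipogenesis and glycolysis, 10 of 17 genes fell and 2 rose after VPA and 5 fell and 1 rose after DEHP, with 6 differences lower and 2 higher (median -0.43). Over all genes 18.8% fell and 20.6% rose after VPA, 21.0% fell and 10.3% rose after DEHP, and 3.85% of differences were lower and 10.2% higher, so the count of DEHP falls is not far from the background. Acly, ATP citrate lyase, which supplies cytosolic acetyl-CoA, read 3040, 3387, 3988 and 2668 after VPA against 20038, 28172, 18462, 18966 and 11467, and 8232, 7624, 9829, 9470 and 6522 after DEHP against 4427, 13371, 15652, 13436 and 15724. VPA arms did not overlap, and in the DEHP arms only vehicle replicate 1 lay below the treated arrays. The VPA response was -2.53 ± 0.30 (5.77-fold lower). The DEHP response was -0.47 ± 0.28, not called, or -0.81 ± 0.19 and called (adjusted p = 0.00336) without that vehicle. The difference was -2.06 ± 0.41 (adjusted p = 0.00232), or -1.71 ± 0.27 without that vehicle. Other Acly probe sets gave differences of -2.45, called, and -1.53, not called.

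Srebf1, which encodes SREBP-1, read 616, 715, 712 and 545 after VPA against 3677, 2484, 2948, 2988 and 2909, and 1265, 2384, 1802, 2746 and 1375 after DEHP against 1462, 3262, 2379, 1877 and 3248. The VPA-treated values were below all others (response -2.21 ± 0.24, 4.63-fold lower), and the difference was -1.86 ± 0.33 (adjusted p = 0.000993). Fasn, fatty acid synthase, had a difference of -1.64 ± 0.43 (adjusted p = 0.0143), with 887 to 1027 after VPA against 2263 to 5380 in VPA vehicle. Slc25a1, the mitochondrial citrate carrier, had one of -0.73 ± 0.14 (adjusted p = 0.002).

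Scd, the stearoyl-CoA desaturase, had the lowest difference among the named genes, but its values were scattered. It read 4910, 3474, 6710 and 6857 after VPA against 30115, 15083, 32236, 20897 and 14201, and 15458, 23507, 34493, 38063 and 15970 after DEHP against 691, 14331, 16008, 7432 and 40014. VPA arms did not overlap and DEHP arms did, and the DEHP vehicle of 691 is again replicate 1. The difference was -3.47 ± 1.01 (adjusted p = 0.0255) with it and -2.56 ± 0.56 (adjusted p = 0.00529) without it, and the call was lost without VPA-treated replicate 2 (adjusted p = 0.0553), without a filter on dim probe sets (adjusted p = 0.085) and with scan day as a fixed block (adjusted p = 0.128).

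Me1, the cytosolic malic enzyme that supplies NADPH for lipogenesis and is a known PPARα target in rodents, also had the lower response after VPA. However, Me1 rose after both compounds, and more after DEHP. It read 3235, 1556, 2601 and 2567 after VPA against 1846, 1579, 1304, 1094 and 1007, and 8018, 5513, 8322, 10553 and 4751 after DEHP against 959 to 1183 in DEHP vehicle. Both responses rose, VPA by 0.85 ± 0.23 with overlapping arms and DEHP by 2.79 ± 0.22 without overlap (6.93-fold), a difference of -1.94 ± 0.32 (adjusted p = 0.0005). Pklr, liver pyruvate kinase, fell after both to a like degree, by 2.83 ± 0.24 and by 2.71 ± 0.22, and the 95% interval of its difference was -0.80 to 0.57.

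Some genes of glucose output had a higher VPA response. Of 14 genes of gluconeogenesis, glycogen and glucose output, 5 had a higher VPA response and 0 a lower one (median 0.45), which became 3 without DEHP vehicle replicate 1 and 2 to 8 over the alternative settings, where 10.2% of all genes were called higher. Gys2, the liver glycogen synthase, read 3865, 3297, 2953 and 2479 after VPA against 1161, 1206, 1080, 1459 and 1337, and 1152, 1238, 1006, 1107 and 779 after DEHP against 1100 to 1711. Only VPA raised it (1.32 ± 0.16, 2.50-fold; difference 1.58 ± 0.22, adjusted p = 0.000112).

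The other 4 called genes of this list followed no single pattern. Pck1, the cytosolic phosphoenolpyruvate carboxykinase, was 22980 to 30716 after VPA and 17801 to 35969 in VPA vehicle, but 10003 to 21663 after DEHP against 27444 to 43052 (response -1.10 ± 0.20; difference 1.12 ± 0.30, adjusted p = 0.0144). The Pck1 difference was not called in the fit of all 76 arrays (adjusted p = 0.16). Slc37a4, the glucose-6-phosphate transporter of the endoplasmic reticulum, fell after both, by 1.22 ± 0.16 after VPA and by 2.18 ± 0.15 after DEHP (difference 0.96 ± 0.22, adjusted p = 0.00538). Pyruvate carboxylase, Pc, fell after DEHP alone (difference 0.78 ± 0.25, adjusted p = 0.0436), and Got1, an aspartate aminotransferase, rose after VPA alone (1.86 ± 0.29; difference 1.24 ± 0.40, adjusted p = 0.0411). Slc2a2, the hepatocyte glucose transporter, which was counted with glycolysis, fell from 3425 to 5658 in vehicle to 549 to 1194 after DEHP and from 5104 to 7674 to 2480 to 4681 after VPA, a difference of 1.41 ± 0.30 (adjusted p = 0.00401).

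The highest differences included transcripts that were dim without VPA and others, such as Tspan3, Mfge8 and Cd63, that were not. Fabp3, the heart-type fatty acid binding protein, read 1887, 1867, 2642 and 2392 after VPA, whereas VPA vehicle was at 95 to 192, DEHP-treated livers at 96 to 151 and DEHP vehicle at 99 to 280. Signals under 150 were set to that floor before log2, so the rise after VPA is at least 13.8-fold, and no fold is given for DEHP. The fitted difference of 3.99 ± 0.28 (adjusted p = 3.59e-08) is set in part by the floor.

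Sptan1, Bex3 and Resp18 are described next. They were named by a rule that asks for treated arrays apart from each other after vehicle subtraction, and Fabp3, Sptan1 and Resp18 reached the signal filter through the VPA-treated group alone, so their separation is a description. Sptan1, the alpha spectrin of non-red cells, read 1910, 1573, 1399 and 2130 after VPA against 156 to 528 in VPA vehicle and 135 to 186 on all DEHP arrays (difference 2.97 ± 0.35, adjusted p = 3.22e-05). Bex3, a small brain-expressed X-linked protein, read 2606, 2771, 2207 and 2659 after VPA against 425 to 666, and 261 to 503 after DEHP against 418 to 608 (VPA response 2.30 ± 0.19, 4.93-fold; difference 2.47 ± 0.26, adjusted p = 8.23e-06). Resp18, an endocrine secretory granule protein, read 946, 2548, 1570 and 1062 against 159 to 417, with 161 to 571 on the DEHP arrays (difference 2.46 ± 0.55, adjusted p = 0.00535).

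**Figure D3:**
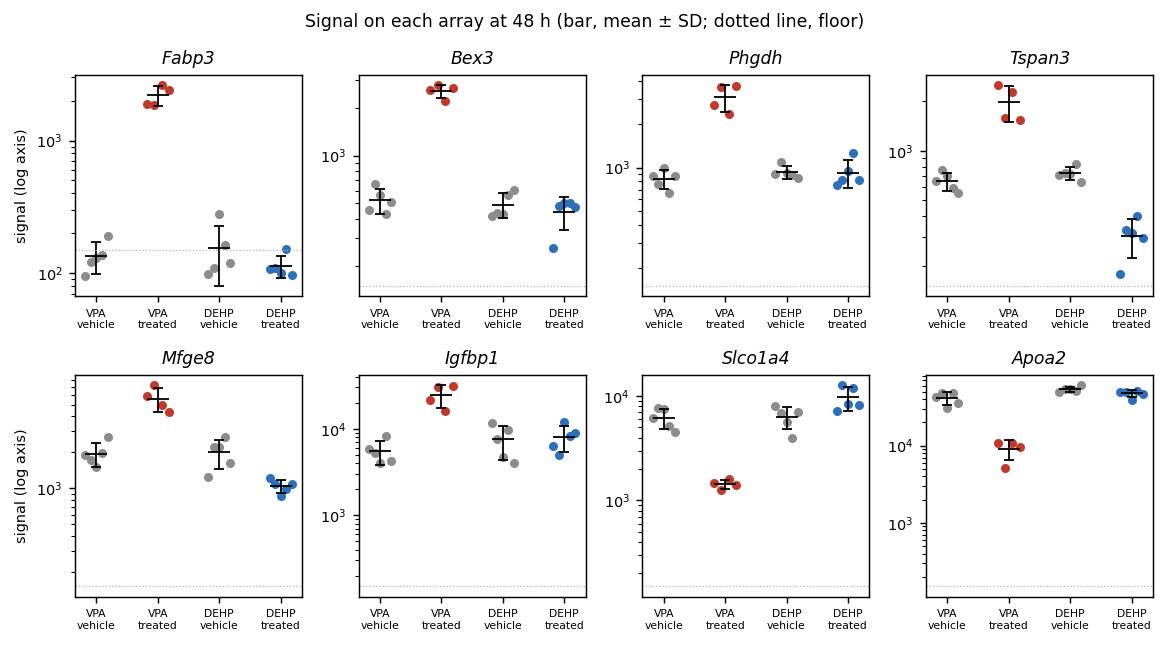
Signal on each array (vertical log axis) for 8 genes by group, with black bars for mean ± SD and a dotted line at the floor of 150; groups hold 5 arrays each, except 4 for VPA treated. VPA-treated arrays stand above all other groups for Fabp3, Bex3, Phgdh, Tspan3, Mfge8 and Igfbp1 and below them for Slco1a4 and Apoa2, and DEHP-treated arrays fall below their vehicle for Tspan3 and Mfge8.

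Ggh and Cd63 were also among the largest differences. Ggh, the lysosomal gamma-glutamyl hydrolase that trims folate polyglutamates, read 1287, 1448, 1864 and 1629 after VPA against 389 to 578, and 187 to 335 after DEHP against 361 to 416. It rose after VPA (1.67 ± 0.17) and fell after DEHP (0.58 ± 0.16 lower), each without overlap, with a difference of 2.24 ± 0.24 (adjusted p = 8.23e-06). Cd63, a tetraspanin of late endosomes and exosomes, read 8443, 5951, 6840 and 6674 after VPA against 1680 to 2348, and 2006 to 3204 after DEHP against 2525 to 3767. Only the VPA arms were apart (response 1.86 ± 0.15, 3.62-fold; difference 2.07 ± 0.21, adjusted p = 5.96e-06), and the vehicle groups of Cd63 differed as well, by -0.61 (adjusted p = 0.015).

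The remaining genes of largest positive difference carry a limit each. They were named by the same rule as Sptan1, so the separation of their treated arrays is a description. Tango2 rose to 934 to 1537 after VPA from 90 to 249 (difference 2.62 ± 0.36, adjusted p = 9.48e-05), and its other probe set gave 0.85, not called. Ube2g2, a ubiquitin-conjugating enzyme of the endoplasmic reticulum degradation pathway, rose to 892 to 1975 from 200 to 665 (difference 2.18 ± 0.64, adjusted p = 0.0266), a call lost without VPA-treated replicate 2 (adjusted p = 0.0619), without DEHP vehicle replicate 5 (adjusted p = 0.0501), with quantile normalization (adjusted p = 0.0514) and without the filter (adjusted p = 0.0811). Dbp, a clock-controlled transcription factor, was at 729 to 1386 after VPA. In VPA vehicle it was at 55 to 91 except for replicate 2 at 1173, and no DEHP array exceeded 101. The difference was 2.19 ± 0.61 (adjusted p = 0.0201, lost without the filter and with scan day as a fixed block). Dbp reached the signal filter through the VPA-treated group alone, so its separation is a description too. All DEHP arrays lay under the floor, so its difference is set in part by the floor. Fzd1, a Wnt receptor, was not called after VPA and fell after DEHP to 236 to 567 from 572 to 1330. Its difference was 2.06 ± 0.52 (adjusted p = 0.0108), lost in the fit of all 76 arrays and with 48 and 168 h vehicles averaged.

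Of the 45 probe sets that were called in opposite directions, 32 rose after VPA and fell after DEHP and 13 fell after VPA and rose after DEHP. The 8 named genes whose smaller response was largest in size are given here, and Ggh, Mgst3, Slco1a4, Pdia6, Fabp1 and Dbi, also opposite, elsewhere. Tspan3, a tetraspanin, read 2524, 1588, 2261 and 1543 after VPA against 550 to 764, and 177, 328, 314, 400 and 295 after DEHP against 646 to 834. Neither pair of arms overlapped, and the responses were 1.58 ± 0.20 (adjusted p = 3.04e-06) and -1.31 ± 0.19 (adjusted p = 2.02e-05), a difference of 2.89 ± 0.27 (adjusted p = 3.46e-06). Mfge8, a secreted glycoprotein that bridges dying cells to phagocytes, read 5921, 7299, 4945 and 4299 after VPA against 1491 to 2666, and 1217, 1086, 854, 990 and 1072 after DEHP against 1238 to 2658, also without overlap (responses 1.53 ± 0.21 and -0.89 ± 0.20, difference 2.42 ± 0.28, adjusted p = 3.04e-05).

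In the same direction went Bin1, a membrane-bending adaptor (1.28 ± 0.31 and -1.18 ± 0.29), Rdh16, a hepatic retinol dehydrogenase (0.84 ± 0.32 and -1.20 ± 0.30), Ergic1, a protein of the compartment between endoplasmic reticulum and Golgi (0.76 ± 0.13 and -0.70 ± 0.12), and Lysmd4 (0.67 ± 0.18 and -1.08 ± 0.17). Their differences were 1.46 to 2.46, with adjusted p of at most 0.0041. Or1f20, annotated as an olfactory receptor, had responses of 0.95 ± 0.34 and -0.85 ± 0.32, and its other probe set gave a difference of -0.22. Without DEHP vehicle replicate 1 its DEHP response was -0.75 and not called (adjusted p = 0.104), and in the fit of all 76 arrays its difference was not called (adjusted p = 0.0622). The other probe sets of Bin1 (0.54) and Ergic1 (0.40) were not called, that of Rdh16 (1.56) was, and the arms overlapped after VPA for Or1f20, Rdh16 and Lysmd4 and after DEHP for Bin1. Fdps, given with the sterol genes, went the other way.

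Most genes of fatty acid oxidation rose after both compounds. Of 13 tested genes of peroxisomal fatty acid oxidation, 8 rose and 1 fell after VPA and 9 rose and 4 fell after DEHP. Of 19 genes of mitochondrial beta-oxidation and ketogenesis, 16 rose after VPA and 15 after DEHP, with 1 fall in each, where 20.6% of all genes rose after VPA and 10.3% after DEHP. Related lists did not rise as a whole: of 10 genes of peroxisome division, membrane proteins and catalase 2 rose and 2 fell after VPA and 3 rose and 1 fell after DEHP, and of 6 genes of fatty acid omega-hydroxylation 1 rose and 3 fell after each, with Cyp4f1 lower in the difference. The response difference was called for 1 of the 13, Ehhadh, and for 0 of the 19. Without DEHP vehicle replicate 1 these became 3 and 2, all lower. Over all genes 18.8% fell after VPA and 21.0% after DEHP, and 3.85% of differences were lower and 10.2% higher. The single call among the 13 is not far from the background.

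Acot1, a cytosolic acyl-CoA thioesterase, read 26811, 26846, 18572 and 39585 after VPA and 46497, 35224, 49664, 41016 and 38037 after DEHP, from 25 to 175 in the vehicles. The rises were at least 177-fold and at least 270-fold, since most vehicle arrays lay under the floor, and the difference of -0.61 ± 0.21 was not called (adjusted p = 0.061), although it was without DEHP-treated replicate 2 (adjusted p = 0.0472) or VPA-treated replicate 4 (adjusted p = 0.00637). Ehhadh, the peroxisomal bifunctional enzyme, read 30867, 24330, 30023 and 30208 after VPA against 3528 to 6779, and 63304, 58938, 57675, 59164 and 44430 after DEHP against 3335 to 6601. All DEHP-treated arrays lay above all VPA-treated ones, and the rises were 2.62 ± 0.18 (6.14-fold) and 3.62 ± 0.17 (12.3-fold). The difference was -1.0 ± 0.25 (adjusted p = 0.00956), not called with quantile normalization (-0.42, adjusted p = 0.327), in the fit of all 76 arrays (adjusted p = 0.182) or with scan day as a fixed block (adjusted p = 0.0955).

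Acaa1b, the peroxisomal thiolase, was 27798 to 33559 after VPA and 42528 to 59749 after DEHP, so the treated groups were apart, yet its difference of -0.58 ± 0.35 was not called with the high DEHP vehicle of 4155 included. Without that array it was -0.87 ± 0.22 (adjusted p = 0.0118), and those of Cyp4a1, the fatty acid omega-hydroxylase, and Ech1, a dienoyl-CoA isomerase, were -0.80 ± 0.23 (adjusted p = 0.0276) and -0.60 ± 0.19 (adjusted p = 0.0398). These 3 differences lay in the direction of a larger rise after DEHP, and none was called with that array included.

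For other strongly raised genes no difference was called, and probe sets of the thioesterases and P450s may detect more than 1 transcript. The 95% interval of the difference was -1.18 to 1.92 for Acot2, the mitochondrial thioesterase, -0.76 to 1.30 for Pdk4, the kinase that inhibits pyruvate dehydrogenase, and -0.45 to 1.42 for Pex11a, a peroxisome division factor. It was -1.51 to 0.68 for Aldh1a1, a retinal dehydrogenase, -1.20 to 0.23 for Cyp2b2, a phenobarbital-inducible enzyme, and -1.30 to 1.07 for Cpt1a, the outer carnitine palmitoyltransferase. Differences up to those bounds remain possible. The intervals include DEHP vehicle replicate 1, and intervals without it are not given here. That array read 2049 for Acot2 against at most 486 on the other DEHP vehicles, and 1260 for Pdk4 against at most 612. For Pex11a it read 2359 against at most 793, and for Cpt1a 10359 against at most 3408. Of 3 thioesterases, 0 had a called difference with or without it, and their median difference went from 0.01 to -0.26.

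Carriers and binding proteins of fatty acids differed gene by gene. In the list of uptake, binding, activation and lipid droplets, 7 of 16 genes rose after each compound, with 2 differences higher and 3 lower. Among all genes 20.6% rose after VPA and 10.3% after DEHP, and 10.2% of differences were higher and 3.85% lower. Dbi, the acyl-CoA binding protein, read 9592, 7698, 10199 and 9031 after VPA against 9578 to 12728, and 20681, 20204, 23784, 23444 and 21006 after DEHP against 8382 to 14846. It rose after DEHP without overlap (0.90 ± 0.13) and fell slightly after VPA (0.37 ± 0.14 lower, overlapping arms), with a difference of -1.27 ± 0.19 (adjusted p = 0.000214).

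Fabp1, the liver fatty acid binding protein and a PPARα target, read 31495 to 42098 after VPA against 48059 to 57160, and 69299 to 93652 after DEHP against 56406 to 79935. VPA lowered it and DEHP raised it (-0.50 ± 0.11 and 0.27 ± 0.10; difference -0.78 ± 0.15, adjusted p = 0.00187), but the DEHP rise was 0.20 and not called without DEHP vehicle replicate 1 (adjusted p = 0.137), the vehicle groups differed too (-0.39, adjusted p = 0.03), and quantile normalization ended the call (-0.33, adjusted p = 0.19). Acsl3, an acyl-CoA synthetase, rose after DEHP alone (difference -1.01 ± 0.17, adjusted p = 0.000683). Slc27a1, a fatty acid transporter of muscle and fat, rose after VPA alone, to 2106 to 2602 from 864 to 1281 (difference 1.30 ± 0.21, adjusted p = 0.000389). Auh, a hydratase of leucine breakdown, rose after VPA alone as well, to 9601 to 11586 from 4394 to 5458 (difference 1.12 ± 0.15, adjusted p = 7.28e-05), the 1 called gene of 11 in branched-chain and short-chain acyl-CoA breakdown. A count of 1 in 11 is near the 10.2% of all genes called higher.

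Genes of bile acid synthesis and transport fell after VPA in most cases. Of 18 tested, 14 fell and 1 rose after VPA and 6 fell and 2 rose after DEHP, with 3 differences lower and 0 higher (median -0.37). Among all genes 18.8% fell after VPA, 21.0% fell and 10.3% rose after DEHP, and 3.85% of differences were lower. Slco1a4, an uptake transporter of organic anions in the sinusoidal membrane, read 1477, 1261, 1597 and 1404 after VPA against 6165, 7638, 7480, 5197 and 4495, and 7220, 12769, 8318, 11984 and 8271 after DEHP against 7946, 6904, 5670, 4004 and 7034. The VPA-treated arrays were below all others, and the DEHP-treated arrays lay high with some overlap: the responses were -2.09 ± 0.21 (4.24-fold lower) and 0.62 ± 0.19 (adjusted p = 0.0189), a difference of -2.71 ± 0.28 (adjusted p = 8.23e-06).

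Slc10a1, the sodium-dependent bile acid uptake carrier, fell after both, by 1.41 ± 0.11 and by 0.62 ± 0.11 (difference -0.78 ± 0.16, adjusted p = 0.00215). Abcc2, the canalicular export pump, fell after VPA alone (1507 to 2296 against 3012 to 5330; difference -0.998 ± 0.25, adjusted p = 0.0114). Both calls were lost in the fit of all 76 arrays. Cyp7a1, the hydroxylase that controls the rate of bile acid synthesis, read 119, 612, 605 and 79 after VPA against 2312 to 8929 and 39 to 112 after DEHP against 1477 to 7524. It fell after both, by at least 19.1-fold and at least 23.8-fold, and the difference of 0.32 ± 0.68 was not called.

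Drug-metabolizing enzymes differed gene by gene. In the phenobarbital-type list, 9 of 15 genes rose after DEHP and 5 after VPA, where 10.3% and 20.6% of all genes did. The 2 called differences, Ephx1 lower and Cyp2b3 higher, both lost the call under several settings. Of all genes, 3.85% were called lower and 10.2% higher. The median difference of the list was -0.41. Gsta3, a glutathione S-transferase, read 4355, 1522, 5131 and 1818 after VPA against 797 to 2442, and 19140, 15938, 6673, 16637 and 14741 after DEHP against 807 to 1541. DEHP raised it 12.8-fold without overlap and VPA 2.14-fold with overlap (difference -2.58 ± 0.53, adjusted p = 0.00274). Hdc, histidine decarboxylase, had the same order, at 157 to 1170 after VPA and 1125 to 1921 after DEHP with most vehicles under the floor (difference -1.82 ± 0.51, adjusted p = 0.0206, lost without the filter and with scan day as a fixed block).

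Some other transferases rose after VPA, but the family was mixed. Of 15 glutathione S-transferases tested, 6 rose and 4 fell after VPA, and 2 rose and 2 fell after DEHP. Differences were higher for 4 and lower for 2, and called or not 7 were positive and 8 negative (median -0.30). Over all genes 20.6% rose and 18.8% fell after VPA, and 10.3% rose and 21.0% fell after DEHP. Differences were higher for 10.2% and lower for 3.85% of all genes. Gsta4, which conjugates lipid aldehydes, read 12236, 12210, 13158 and 12243 after VPA against 5704 to 6661, and 4445 to 7168 after DEHP against 5150 to 5964 (VPA response 1.00 ± 0.11; difference 1.03 ± 0.16, adjusted p = 0.000221). Mgst3, a microsomal transferase, rose after VPA (0.59 ± 0.18) and fell after DEHP (0.74 ± 0.17 lower; difference 1.33 ± 0.24, adjusted p = 0.0013). Gstm5 rose to 375 to 794 after VPA from under the floor, and all DEHP arrays but 1, at 169, were under it. It reached the signal filter through the VPA-treated group alone. Probe sets of this family may detect more than 1 member.

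Among 18 NRF2 targets and glutathione genes, 9 rose after VPA and 8 after DEHP, with 4 differences higher and 2 lower. Called or not, 8 of the 18 differences were positive and 10 negative (median -0.21). By comparison, 20.6% of all genes rose after VPA and 10.3% after DEHP, and 10.2% of differences were higher and 3.85% lower. Cbr1, a carbonyl reductase, read 2022, 1856, 1474 and 1590 after VPA against 252 to 431, and 576 to 731 after DEHP against 526 to 636 with vehicle replicate 1 at 159. Its VPA response was 2.31 ± 0.30 (4.97-fold), and the difference was 1.78 ± 0.41 (adjusted p = 0.00622), or 2.16 ± 0.22 without that vehicle. Ptgr1, an NADPH-dependent reductase, was not called after VPA and fell after DEHP to 471 to 878 from 1652 to 2322 (difference 1.40 ± 0.22, adjusted p = 0.000341). Gss, glutathione synthetase, rose after both and more after VPA (1.02 ± 0.12 and 0.38 ± 0.11; difference 0.64 ± 0.17, adjusted p = 0.0138).

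Among stress genes, chaperones of the endoplasmic reticulum and of the cytosol are given apart. Of 12 chaperones of the endoplasmic reticulum, 7 fell and 0 rose after VPA and 3 rose and 0 fell after DEHP. Of the differences, 4 were lower and 0 higher (median -0.59, with 2 to 8 lower over the alternative settings). For all genes the shares were 18.8% down and 20.6% up after VPA and 21.0% down and 10.3% up after DEHP. Differences were lower for 3.85% and higher for 10.2% of all genes. Pdia6, a disulfide isomerase, read 6180, 6115, 5205 and 7154 after VPA against 7177 to 11979, and 17919, 14743, 14028, 9590 and 17860 after DEHP against 9814 to 11101. VPA lowered it without overlap and DEHP raised it in 4 of 5 livers (-0.63 ± 0.17 and 0.51 ± 0.16; difference -1.14 ± 0.23, adjusted p = 0.00232).

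Hsp90b1, the endoplasmic Hsp90, and Hspa5, the chaperone BiP, rose after DEHP (0.73 ± 0.19 and 0.42 ± 0.14), and their VPA responses were not called. Without DEHP vehicle replicate 1 the DEHP response of Hspa5 was 0.36 and not called (adjusted p = 0.0758). Their differences were -1.04 ± 0.28 (adjusted p = 0.0159) and -0.74 ± 0.21 (adjusted p = 0.0203), both lost in the fit of all 76 arrays and with scan day as a fixed block. Pdia3, another disulfide isomerase, fell after VPA (difference -0.82 ± 0.22, adjusted p = 0.0164), while its other probe set gave 0.03.

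In the cytosol, Hspb1, a small heat shock protein, read 7001, 7674, 5452 and 6261 after VPA against 642 to 2012, and 2003 to 4789 after DEHP against 1113 to 2974. Both rose, VPA without overlap (2.72 ± 0.31, 6.58-fold) and DEHP with overlap (0.93 ± 0.30). The difference of 1.79 ± 0.43 (adjusted p = 0.0084) was the 1 call among 14 heat shock proteins. Other Hspb1 probe sets gave 1.64 and 1.91, both called, and 0.23, not called. Phgdh, the first enzyme of serine synthesis and a target of ATF4, read 2737, 3645, 2348 and 3671 after VPA against 666 to 985, and 761 to 1256 after DEHP against 846 to 1087. Only VPA raised it (1.88 ± 0.16, 3.68-fold; difference 1.91 ± 0.22, adjusted p = 3.04e-05), and its other 2 probe sets were called too, at 2.28 and 2.77. It was the 1 called difference among 13 genes of the integrated stress response, of which 6 rose after VPA and 4 after DEHP. Of all genes, 20.6% rose after VPA, 10.3% rose after DEHP and 10.2% had a higher difference. A single higher difference among 14 or 13 genes is near that last share.

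Proteasome subunits rose after both compounds, 22 of 25 after VPA and 20 of 25 after DEHP, with 2 falls in each. Of all genes, 20.6% rose after VPA and 10.3% after DEHP. The median rise was 0.92 after VPA and 0.63 after DEHP, and 4 differences were called, all higher, among them Psmd1 (1.24 ± 0.09 and 0.57 ± 0.08) and Psmb1 (1.32 ± 0.12 and 0.64 ± 0.11). Since 10.2% of all genes were called higher, the 4 of 25 are near the background. With arrays centred on their median, 1 subunit was called higher and 1 lower. Over the alternative settings 1 to 13 were called higher and 0 to 2 lower. Called or not, 21 of the 25 differences were positive and 4 negative, with a median of 0.25 against 0.11 over all genes.

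**Figure D4:**
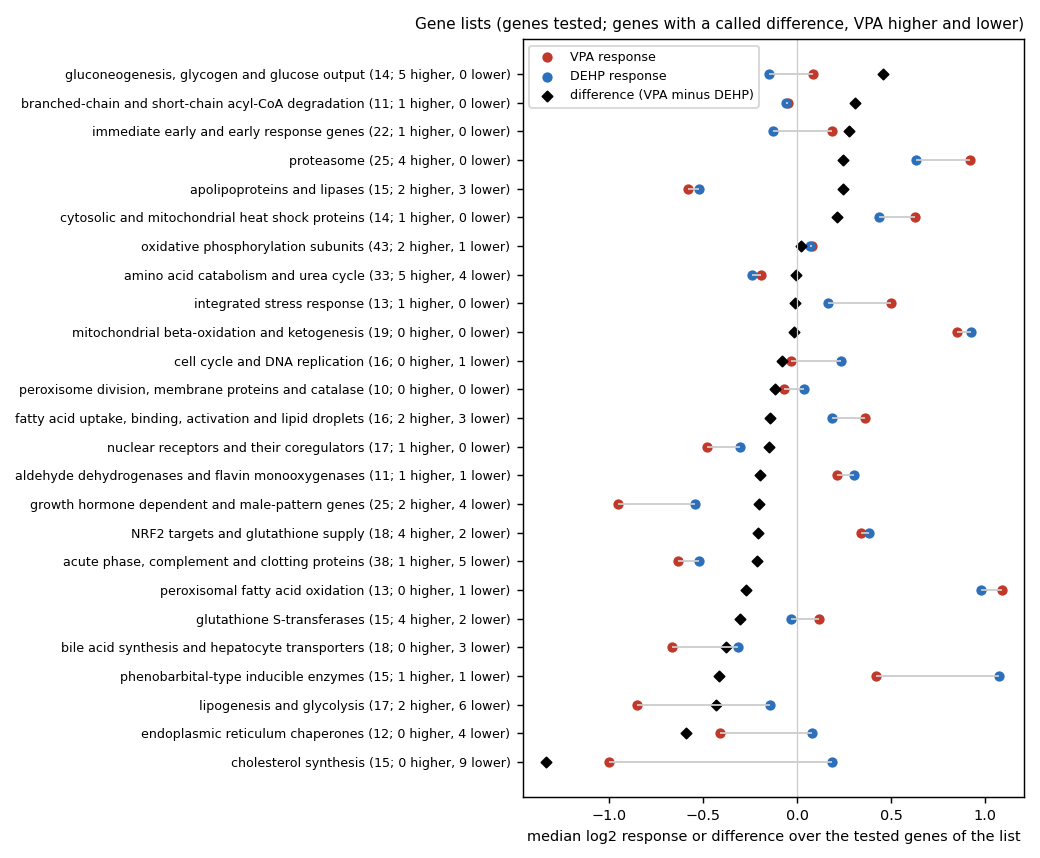
Median log2 response of the tested genes of each list with 10 or more genes, for VPA (red), DEHP (blue) and the difference (black diamond), with the number of genes tested and of called differences in brackets. Cholesterol synthesis lies lowest for the difference, at -1.33, and gluconeogenesis, glycogen and glucose output highest, at 0.45; a median of differences need not equal the gap between the medians.

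Secreted proteins of the hepatocyte fell after both compounds. Of 38 acute phase, complement and clotting proteins, 30 fell after VPA and 28 after DEHP, with 5 differences lower and 1 higher, and 9 were lower in VPA vehicle than in DEHP vehicle. Over all genes 18.8% fell after VPA, 21.0% fell after DEHP and 3.85% of differences were lower, and the number of the 38 called lower ran from 2 to 20 over the alternative settings. The summed hepatocyte markers fell alongside, as given above, and their part in these counts was not tested. C9, the last component of the complement pore, read 5064, 4471, 4855 and 5459 after VPA against 19303 to 24673, and 9578 to 16459 after DEHP against 13266 to 24236. VPA-treated arrays were below all others (responses -2.13 ± 0.16 and -0.63 ± 0.15; difference -1.50 ± 0.22, adjusted p = 0.000176). Pros1, protein S, fell after VPA alone (difference -1.22 ± 0.30, adjusted p = 0.00933), a call lost in the fit of all 76 arrays (adjusted p = 0.188). Lbp, which binds lipopolysaccharide, was the 1 that rose after VPA (0.89 ± 0.22; difference 0.98 ± 0.30, adjusted p = 0.0329).

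Apolipoproteins split in direction, with 2 differences higher and 3 lower of 15. Since 10.2% of all genes were called higher and 3.85% lower, the 2 higher are near the background. Apoa2 read 10905, 5202, 10848 and 9547 after VPA against 42850, 48580, 30628, 48203 and 35504, while all DEHP arrays were at 39396 to 61202. VPA lowered it 4.63-fold without overlap, the DEHP arms overlapped (-0.18 ± 0.17), and the difference was -2.03 ± 0.25 (adjusted p = 3.82e-05). Apoa1, the main protein of high-density lipoprotein, instead fell more after DEHP (17447 to 26181 against 40941 to 55199) than after VPA (21798 to 34257 against 29944 to 45660), a difference of 0.74 ± 0.21 (adjusted p = 0.0203) that was lost without VPA-treated replicate 2 (adjusted p = 0.0531) and with median centring (adjusted p = 0.0824). Apom, a carrier of sphingosine phosphate, fell after DEHP alone (difference 0.86 ± 0.18, adjusted p = 0.00292).

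Genes that depend on growth hormone or are higher in male liver fell after both, 16 of 25 after VPA and 14 after DEHP, with 4 differences lower and 2 higher. The shares of all genes were 18.8% and 21.0% for these falls, and 3.85% and 10.2% for lower and higher differences. The 2 higher of 25 are near the background. Cyp2c11, the main male-specific P450 of rat liver, read 7292, 3973, 14282 and 10352 after VPA against 34256 to 53091, and 23507 to 29195 after DEHP against 47065 to 54299. Both arms were apart, and the fall was larger after VPA (2.40 ± 0.24 and 0.92 ± 0.22 lower; difference -1.48 ± 0.32, adjusted p = 0.00433). Igfals, the acid-labile subunit that holds IGF-1 in the circulation, showed the same order (2277 to 4053 against 10068 to 13439 for VPA, 5563 to 8330 against 6237 to 12346 for DEHP; difference -1.42 ± 0.26, adjusted p = 0.00137).

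Igfbp1, an IGF-binding protein that rises in fasting, read 21652, 30608, 15972 and 30993 after VPA against 4028 to 8154, and 4960 to 12043 after DEHP against 4014 to 11676. VPA raised it 4.50-fold without overlap and DEHP did not by the test (0.16 ± 0.29), a difference of 2.01 ± 0.43 (adjusted p = 0.00355) that was not called in the fits of all 76 arrays (adjusted p = 0.293) or of the 50 VPA and DEHP arrays (adjusted p = 0.254) or with 48 and 168 h vehicles averaged (adjusted p = 0.346).

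Amino acid catabolism and the urea cycle showed no common direction, with 5 differences higher and 4 lower of 33 genes. With 10.2% of all genes called higher and 3.85% lower, the 5 higher are not far from the background. Kmo, kynurenine 3-monooxygenase, fell after VPA alone, to 1631 to 3559 from 5094 to 6477 (difference -1.23 ± 0.23, adjusted p = 0.00144). Agxt and Asl, alanine-glyoxylate aminotransferase and argininosuccinate lyase, rose more after VPA (differences 0.87 ± 0.21 and 0.89 ± 0.22, adjusted p = 0.00766 and 0.00896). Glud1, Dmgdh and Gnmt, enzymes of glutamate, dimethylglycine and S-adenosylmethionine use, fell after DEHP alone (differences 0.60 to 0.91).

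Single calls came from further lists. Tsc22d1, a transcriptional regulator, fell after both but more after DEHP (2186 to 4206 against 7159 to 11640 for VPA, 750 to 1785 against 5685 to 13791 for DEHP; difference 1.31 ± 0.36, adjusted p = 0.0196). That call was lost with quantile normalization and without the filter. Mcm6, a subunit of the replicative helicase, rose after DEHP in part of the livers (333 to 970 against 225 to 406) and was not called after VPA. Its difference of -1.45 ± 0.36 (adjusted p = 0.01) was the 1 call among 16 cell cycle genes, and its other probe set gave -0.89, not called. Of 43 subunits of oxidative phosphorylation 2 differences were higher and 1 lower. Over all genes 10.2% were called higher and 3.85% lower, so neither count exceeds the background. The 1 lower call of 16 cell cycle genes is near it. Cavin3, a protein of caveolae, rose after DEHP with overlap (1.06 ± 0.33) and was not called after VPA (difference -1.83 ± 0.48, adjusted p = 0.0135). Without DEHP vehicle replicate 1 its DEHP response was 0.88 and not called (adjusted p = 0.0533).

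Car3, Hao2, Dio1 and Fmo1 were among the largest shared falls. Car3, carbonic anhydrase 3, had responses of -3.54 ± 0.45 after VPA and -3.01 ± 0.42 after DEHP. Those of Hao2, a peroxisomal hydroxyacid oxidase, were -2.01 ± 0.19 and -2.18 ± 0.18, and those of Dio1, the type 1 deiodinase, -2.38 ± 0.20 and -3.01 ± 0.19. The 95% intervals of their differences were -1.82 to 0.74, -0.37 to 0.71 and 0.04 to 1.21, none called after adjustment, although that of Dio1 does not include 0 and that of Car3 is wide. Fmo1, a flavin monooxygenase, read 836, 611, 2057 and 402 after VPA against 3983 to 6079 and 185 to 288 after DEHP against 3250 to 5227, and the difference of 1.49 ± 0.42 was called (adjusted p = 0.022). It was not called without the filter (adjusted p = 0.0697) or with scan day as a fixed block (adjusted p = 0.0883).

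Markers of other liver cells moved too. Of 11 tested stellate cell and matrix genes, 9 fell after DEHP and 3 after VPA, against 21.0% and 18.8% of all genes, and 2 differences were higher, Mgp and Col1a2, against 10.2%. No stellate cell difference was called when DEHP vehicle replicate 1 or 2, VPA vehicle replicate 3 or 5, DEHP-treated replicate 1 or 5 or VPA-treated replicate 2 or 3 was left out. Their summed signal was 43985 to 52094 after VPA against 62341 to 72947, and 39441 to 42238 after DEHP against 67971 to 75401. Of 14 Kupffer cell and leukocyte genes, 6 fell after DEHP and 1 rose and 1 fell after VPA, and the differences of Aif1 (1.26 ± 0.37) and Clec4f (0.82 ± 0.27) were called. The VPA counts lie below the 20.6% and 18.8% of all genes, and 1 Kupffer cell difference was called in most fits that left out 1 array and 0 without VPA-treated replicate 4. Of 5 erythroid and blood genes, 3 fell after VPA and 2 after DEHP, and Pf4, a platelet chemokine, was called lower. Their summed signal was 10414 to 19849 after VPA against 34228 to 69397, and 15402 to 46811 after DEHP against 38663 to 63512. The median difference was -0.90 for these genes, and 0.38 and 0.40 for the stellate and Kupffer lists. With quantile normalization or median centring, no stellate cell difference was called. Of 4 cholangiocyte genes, 3 rose after VPA and 2 after DEHP, and of 5 endothelial genes none had a called difference. The part of these cells in the results above was not tested.

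At 168 h after the dose little of the difference at 48 h remained. In a separate fit of the 19 arrays of the same design at 168 h, 3 probe sets were called for VPA, all lower (0.0775%), and 173 for DEHP, 91 higher (2.35%) and 82 lower (2.12%), of the 3871 tested at both times, and the response difference was called higher at 16 (0.413%) and lower at 50 (1.29%). Of the 541 probe sets called at 48 h and tested at both times, 15 were called at 168 h with the same sign and 5 with the opposite sign. Their median absolute difference went from 0.90 to 0.21, against 0.20 for all probe sets at 168 h. In a joint fit of both times the change of the difference was called higher at 90 (2.21%) and lower at 140 (3.44%) of 4072.

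Several genes of fatty acid metabolism differed at 168 h through DEHP, among them some whose difference had not been called at 48 h. Acot1 read 2521, 18576, 6078, 2009 and 12575 after DEHP, and 71 to 129 after VPA with all vehicles at 15 to 170. Acaa1b read 21594, 34986, 20090, 15127 and 30011 after DEHP against 1055 to 1737, and 1447 to 2461 after VPA against 1322 to 1881. DEHP-treated arrays of these genes lay above all others, and VPA-treated arrays overlapped their vehicles. The DEHP response of Acaa1b was 4.20 ± 0.20 and its VPA response 0.18 ± 0.22, so that its difference changed by -3.44 ± 0.48 from 48 to 168 h (adjusted p = 1.88e-05).

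The difference also changed for Cyp4a1 (-2.60 ± 0.45, adjusted p = 0.000261), Ech1 (-2.31 ± 0.53, adjusted p = 0.00603), Acot2 (-3.75 ± 0.91, adjusted p = 0.00958) and Ehhadh (-1.44 ± 0.43, adjusted p = 0.0428, lost when 1 of several arrays was left out). Me1 kept its difference, at -1.94 ± 0.32 and -1.98 ± 0.37, with a change of -0.04 ± 0.51. The differences of Slco1a4 (2.19 ± 0.36, adjusted p = 0.000138), Apoa2 (1.72 ± 0.28, adjusted p = 0.000129), Fdps (1.70 ± 0.43, adjusted p = 0.0127), Tspan3 (-2.16 ± 0.39, adjusted p = 0.000418) and Phgdh (-1.71 ± 0.35, adjusted p = 0.00199) changed toward 0, and none of these 5 was called at 168 h.

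**Figure D5:**
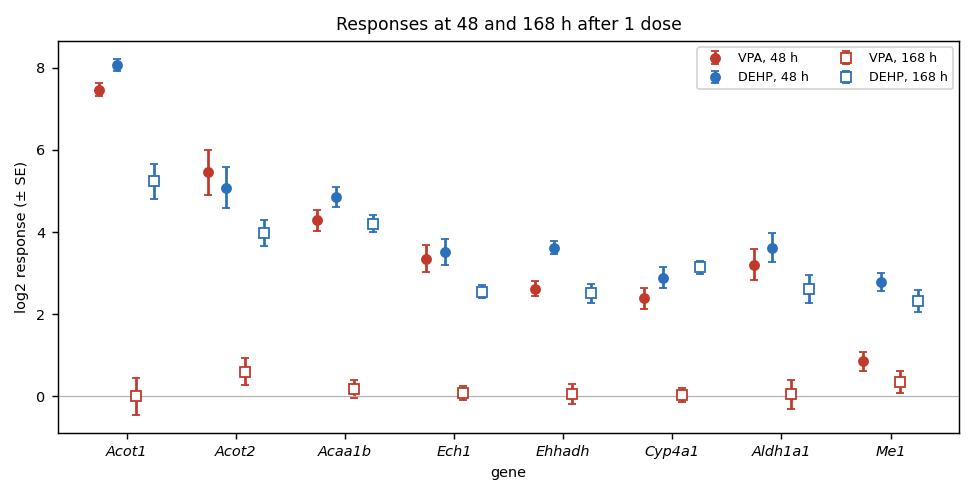
Log2 responses (± SE) of 8 genes at 48 h (filled circles) and 168 h (open squares) for VPA (red) and DEHP (blue). At 168 h the VPA values lie between 0.00 and 0.60 and the DEHP values between 2.32 and 5.23; the bars of Acot1 are set in part by the floor.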

How the data were processed

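Livers of male rats were profiled on a rat expression array made by Affymetrix. Per the labels, 10 µg of total RNA isolated with RNA STAT-60 was labelled, and the deposited intensities are MAS 5.0 signals on the linear scale, scaled globally to 1500 by the authors. Of 8799 probe sets 7018 carried 1 symbol in the platform annotation. Samples were grouped by their labels. The pooled arrays mix RNA of the same animals and entered no test.

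A floor of 150 was applied to the signals before the log2 step. The 59 control probe sets and probe sets with a mean signal under 500 in all 4 groups were left out. Group means of the 19 arrays were fitted with limma 3.58.1 in R 4.3.3 (lmFit, eBayes with an intensity trend), and adjusted p values are Benjamini-Hochberg values, called under 0.05. They measure the spread between these arrays, whose number limits the precision. Folds whose lower side lay at the floor are lower bounds. For gene lists, 1 probe set per gene was used, that of highest mean signal.

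The members, gene lists, tests and naming rule were chosen with earlier results of these data known. The rule named the 12 genes of largest called difference per sign (mean signal of at least 1000 in the highest group, treated arrays apart after subtraction of the vehicle mean), 8 shared genes per direction, 8 opposite ones, up to 3 called genes per list and a set of fixed genes, of which Ddit3 was below the filter and some are not reported here. List members named beyond the rule were chosen after their values were seen. The fits were tested on simulated data. As alternatives, the floor, filter, scaling and variance trend were changed, as were the arrays fitted and the vehicles used. Blocks for replicate and scan day, the 3'/5' ratio, array weights and leaving out each array were also tried. The test of change between times, the list counts without DEHP vehicle replicate 1 and the sterol motif were added after seeing the data. Other steps used Python 3.11.15 with matplotlib 3.10.9, pandas 2.3.3, scipy 1.17.1 and numpy 2.4.6.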

Additional observations from a re-analysis of the deposited data

Results flagged for a closer look

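Within groups of 4 or 5 arrays, 25 of 377 groups of named genes (6.63%) held an array far from the others by Dixon's criterion, and chance gives about 1 in 20. DEHP vehicle replicate 1 accounts for 10 of them: Acly at 4427, Acot2 at 2049, Acaa1b at 4155, Pdk4 at 1260, Ech1 at 11706, Pex11a at 2359, Cyp4a1 at 15741, Cpt1a at 10359, Cbr1 at 159 and Hspb1 at 2974. The other DEHP arrays were vehicle replicate 2 for Aldh5a1 (699) and Gys2 (1711), vehicle replicate 3 for Fabp3 (280) and Pdia6 (11101), treated replicate 1 for Bex3 (261) and treated replicate 3 for Aldh1a1 (12495). Among VPA vehicles they were replicate 2 for Psmb1 (4065), replicate 4 for Sptan1 (528) and Cyp4f1 (27786), and replicate 5 for Dbi (9578) and Hspb1 (2012). Among VPA-treated arrays they were replicate 1 for Psma2 (6741), replicate 2 for Ehhadh (24330) and replicate 3 for Ergic1 (3794) and Gsta4 (13158).

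Among the 45 probe sets with opposite responses, the 8 named genes whose smaller response was largest in size were Tspan3 (2.89), Mfge8 (2.42), Bin1 (2.46), Rdh16 (2.04), Or1f20 (1.79), Lysmd4 (1.75), Ergic1 (1.46) and Fdps (-1.83), all as log2 differences called by limma. The difference changed between 48 and 168 h for Acot1 (-4.63), Acot2 (-3.75), Acaa1b (-3.44), Cyp4a1 (-2.60), Ech1 (-2.31) and Ehhadh (-1.44), and the value of Acot1 is set in part by the floor.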

How the results depend on the processing

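The 608 called differences became 364 in a fit of all 76 individual arrays, 323 with scan day as a fixed block and 1658 with treated arrays compared directly. Of these, 239, 220 and 1094 were higher and 125, 103 and 564 lower, while median centring gave 240 higher and 302 lower and averaged vehicles 307 lower. Leaving out 1 array gave 479 to 631 calls, 322 to 432 higher and 157 to 219 lower. The vehicle difference, 249 calls, became 157 with quantile normalization, 155 without the filter, 104 with all 76 arrays and 124 to 279 with 1 array left out, the lowest without VPA vehicle replicate 2. At 168 h the 66 calls became 43 without the filter, 37 with all 76 arrays and 50 to 77 with 1 array left out, and the change between times was called at 98 with all 76 arrays and at 195 to 244 with 1 left out.

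Same-numbered animals share only a number: over 9 pairs their deviations correlated at -0.10 to 0.14. With the replicate block 467 differences were called at 48 h (300 higher, 167 lower) and 42 at 168 h. The vehicle difference could not be estimated with the replicate block or the fixed scan day. Ephx1 turned to 0.18 within 1 pair of scan days and Fmo1 to -0.10 within another. Both pairs used the VPA day that held 1 treated and 1 vehicle array. Of the 98 named probe sets, 33 to 59 moved by at least the fitted SD between arrays within the pairs of days. The cause of these changes was not tested. Of 78 named genes with a called difference, 49 were called in every setting run. Most of these genes were picked by the size or the adjusted p of their difference, so this share does not hold for all calls. Of the 608 calls, 309 were kept with scan day as a fixed block and 348 in the fit of all 76 arrays. Signals at the floor of 150 give bounds only.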
